A study of Homo sapiens with 12 samples.

Results

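A set of 10 B-cell cytokine, chemokine and cytokine receptor genes was followed after silencing of cyclin D1 in 2 mantle cell lymphoma lines. The members were taken by symbol: the cytokine subunit EBI3, the cytokine IL10, the chemokines CCL3, CCL4, CCL22 and CXCL10, and the receptor chains IL10RA, IL21R, IL4R and IL2RG. All 10 were present, each on a single row, among 23617 gene symbols in the Granta-519 table and 23615 in the JeKo-1 table. Granta-519 and JeKo-1 are established human cell lines from this B-cell cancer, in which a translocation typically drives CCND1, the cyclin D1 gene. Lentivirus carried either a hairpin RNA that silences cyclin D1, shCycD1, or a control hairpin, shCtrl, and transduced cells of all groups were selected with puromycin. The media differed, with Granta-519 grown in RPMI and JeKo-1 in DMEM, both with serum. The 4 groups held 3 libraries each, called biological replicates by the series design. The labels name no second shRNA against cyclin D1 and no clones.

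Cytokines and chemokines are secreted proteins that lymphocytes use to instruct and attract other cells. Receptors of the IL4, IL21 and IL2 type pair a private chain with the shared common gamma chain, encoded by IL2RG, and signal through JAK kinases and STAT transcription factors. In B cells these signals steer growth, class switching and plasma cell formation, and activated B cells release CCL3, CCL4 and CCL22, which attract T cells and myeloid cells.

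CCND1 was lower in every silenced library, at 213 to 298 RPKM against 874 to 1043 in Granta-519 shCtrl and at 64.8 to 67.4 against 315 to 395 in JeKo-1 shCtrl. RPKM is a read count scaled by gene length and by library size. Libraries of 1 group correlated at 0.981 to 0.988 in Granta-519 and 0.968 to 0.974 in JeKo-1 (Pearson's r of log2 values across genes). All 8 B-cell markers, MS4A1 and CD79A among them, reached 1 RPKM in at least 1 library of each line. EBF1 did so in Granta-519 only in silenced libraries (0.754 ± 0.0694 RPKM in shCtrl and 1.12 ± 0.0421 in shCycD1, SD, n = 3). CD5, a surface marker of this lymphoma, stayed at 0.163 to 0.383 RPKM in Granta-519. Of 13 listed T and NK cell markers 10 stayed under 1 RPKM in every Granta-519 library and 8 in every JeKo-1 library, and of 12 myeloid markers 7 and 9 did. The files give no read totals, so the depth behind each value is unknown. In Granta-519 the values fit a length that includes introns, so levels of different genes there are per genomic base, and levels were not compared between the tables.

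The upstream sequences of 5 members are printed because these members had the clearest changes or the most motif matches. Each runs from 250 bases before the annotated transcription start to the base before it, from RefSeq (GRCh38.p14), with motif matches in capitals. RefSeq windows were found for 9 of the 10 members (13 windows, since IL10 and CCL3 have several starts). Motifs were searched on both strands over the full windows, which also hold 50 bases after the start. The kappaB-like motif GGNNTTNCC is related to NF-kappaB sites, and the ISRE-like motif TTCNNTTTC to interferon response elements.
EBI3, chr19:4229273-4229522, plus strand: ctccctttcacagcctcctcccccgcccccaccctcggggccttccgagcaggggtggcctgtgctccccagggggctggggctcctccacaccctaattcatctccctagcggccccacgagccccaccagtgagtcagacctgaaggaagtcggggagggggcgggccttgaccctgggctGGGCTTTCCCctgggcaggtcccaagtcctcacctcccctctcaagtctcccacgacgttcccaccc
CCL22, chr16:57358533-57358782, plus strand: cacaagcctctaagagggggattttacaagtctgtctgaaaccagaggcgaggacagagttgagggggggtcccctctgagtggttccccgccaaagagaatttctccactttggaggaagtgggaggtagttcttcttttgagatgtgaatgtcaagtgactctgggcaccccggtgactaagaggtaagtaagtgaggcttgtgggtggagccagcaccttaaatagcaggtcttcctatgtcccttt
IL4R, chr16:27313724-27313973, plus strand: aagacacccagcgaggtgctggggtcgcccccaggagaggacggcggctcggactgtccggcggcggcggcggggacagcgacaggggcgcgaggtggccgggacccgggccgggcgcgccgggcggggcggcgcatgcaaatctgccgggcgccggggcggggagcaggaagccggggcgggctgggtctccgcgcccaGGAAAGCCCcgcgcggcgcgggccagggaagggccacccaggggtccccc
IL21R, chr16:27427021-27427270, plus strand: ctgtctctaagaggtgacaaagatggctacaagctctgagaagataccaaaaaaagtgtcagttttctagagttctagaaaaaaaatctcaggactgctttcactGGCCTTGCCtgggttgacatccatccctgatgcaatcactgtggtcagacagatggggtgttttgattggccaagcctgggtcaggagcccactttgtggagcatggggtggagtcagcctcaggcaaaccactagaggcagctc
CXCL10, chr4:76023498-76023747, minus strand: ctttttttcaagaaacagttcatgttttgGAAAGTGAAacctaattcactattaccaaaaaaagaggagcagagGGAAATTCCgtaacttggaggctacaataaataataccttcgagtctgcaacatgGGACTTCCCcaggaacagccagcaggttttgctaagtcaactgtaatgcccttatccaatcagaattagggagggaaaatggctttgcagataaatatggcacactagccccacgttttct

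A kappaB-like match stood in 4 of the 13 windows, those of EBI3, IL4R, IL21R and CXCL10, and in 17.1% of 35116 RefSeq windows of the same length. EBI3 held GGGCTTTCC and the overlapping GGCTTTCCC, and CXCL10 held GGAAATTCC and GGACTTCCC. The ISRE-like match was in 2 windows, those of CXCL10 (GAAAGTGAA, on the opposite strand) and CCL3, against 8.1% of all windows. The GAS-like motif TTCNNNGAA, the letters bound by many STAT dimers, and the E2F-like motifs TTTGGCGC and TTTCCCGC were in 0 member windows, against 7.7% and 2.3%. These matches describe letters only: of the 4 genes with a kappaB-like match, EBI3, IL4R and IL21R were called higher in Granta-519 and CXCL10 was not called.

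In Granta-519, EBI3, CCL22, IL21R, IL4R and IL2RG rose, CCL4 fell (but not with spike-in scaling, at 0.0011), and IL10, CCL3, CXCL10 and IL10RA did not pass the test. These are 5 higher and 1 lower of 10 tested, where 22.4% of all 12668 tested genes were called higher, 18.2% lower and 40.6% either way (limma on log2(RPKM + 0.5), Benjamini-Hochberg adjusted p under 0.05). The median log2 change of the 10 was 0.59, against 0.03 over all tested genes. In JeKo-1, CCL22, IL10RA, IL21R and IL4R rose, IL2RG fell, IL10, CCL3 and CCL4 did not pass, and EBI3 and CXCL10 lay under the minimum for testing (1 RPKM in at least 3 of 6 libraries). These are 4 higher and 1 lower of 8 tested, where 36.7% of 11866 tested genes were called higher, 27.8% lower and 64.6% either way, so the members' share of calls was near that of all genes. CCL22, IL21R and IL4R were called higher in both lines, which 14.8% of the 10653 genes tested in both were.

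**Figure D1:**
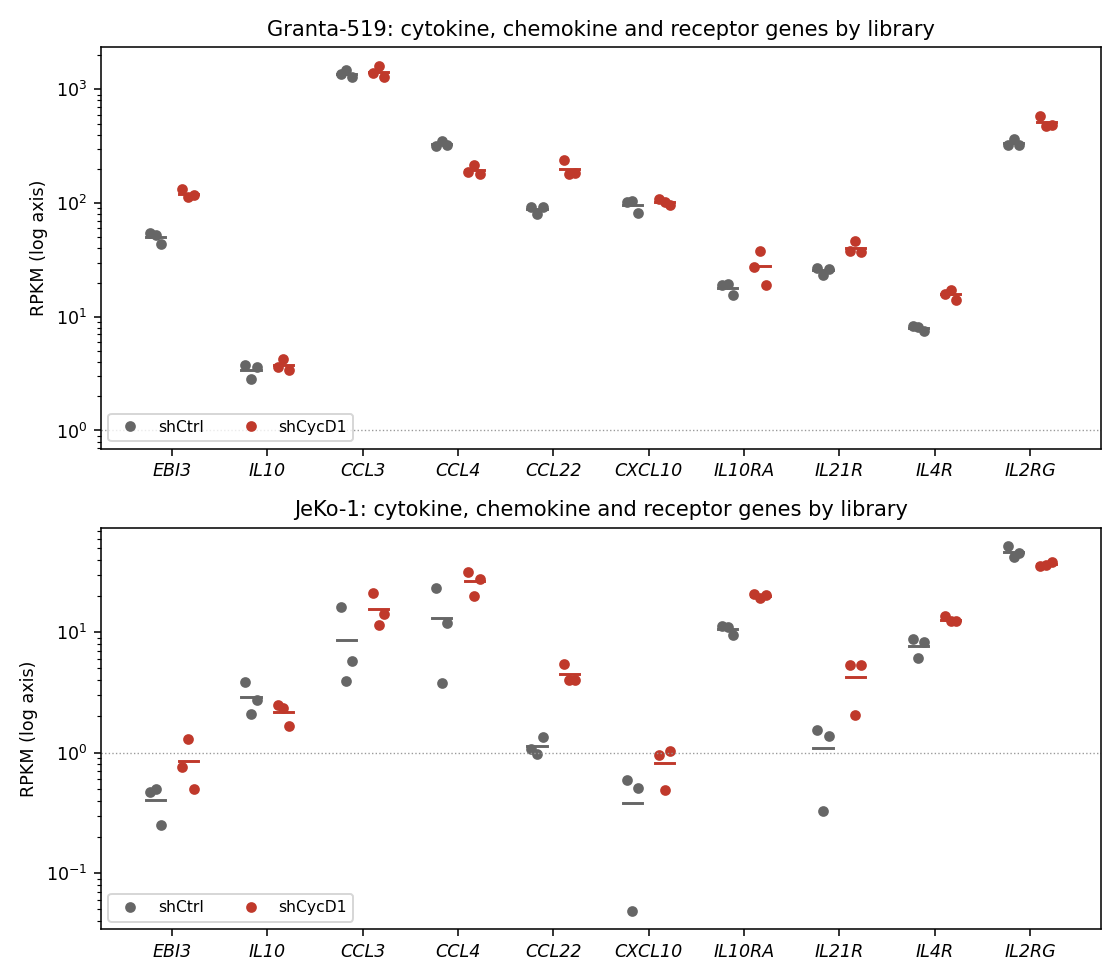
RPKM on a log axis (vertical) of the 10 genes (horizontal) in each of the 3 shCtrl (grey) and 3 shCycD1 (red) libraries of Granta-519 (top) and JeKo-1 (bottom); short lines are group means and the dotted line is 1 RPKM. In Granta-519 the groups do not overlap for EBI3, CCL4, CCL22, IL21R, IL4R and IL2RG, and in JeKo-1 CCL3 and CCL4 spread widely within shCtrl. Of all tested Granta-519 genes 29.8% lay higher and 24.2% lower without overlap.

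EBI3 encodes a secreted subunit that pairs with IL27 to form interleukin 27 and with IL12A to form interleukin 35. In Granta-519 it stood at 54.3, 52.6 and 43.6 RPKM in shCtrl and at 132, 114 and 118 in shCycD1. Every silenced library lay above every control library, and the log2 change was 1.27 ± 0.11 (SE, limma adjusted p = 0.000299). Groups did not overlap in the rising direction for 29.8% of tested genes in this line and in the falling direction for 24.2%. In JeKo-1 EBI3 was low, at 0.474, 0.497 and 0.251 RPKM in shCtrl and 0.757, 1.30 and 0.498 in shCycD1. The silenced libraries lay above the controls there by a margin as small as 0.498 against 0.497. Without the filter its JeKo-1 change was 0.54 and was not called (limma adjusted p = 0.113). Of the EBI3 partners, IL27 stayed at or under 0.671 RPKM in Granta-519 and IL12A fell there from 1.96 ± 0.146 to 1.24 ± 0.166 RPKM (SD, n = 3; log2 change -0.50, limma adjusted p = 0.00937; 0.08 with spike-in scaling). Of the receptor chains, IL6ST, the shared chain gp130, rose by 0.41 in Granta-519 (limma adjusted p = 0.00702), while IL27RA was at -0.14 (adjusted p = 0.417) and in JeKo-1 at -0.35 (adjusted p = 0.0567).

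IL10, a cytokine that restrains inflammation and supports B-cell survival, was low in both lines. Granta-519 shCtrl libraries held 3.78, 2.84 and 3.63 RPKM and shCycD1 libraries 3.62, 4.26 and 3.38, with overlapping groups. The log2 change was 0.12 ± 0.13 (SE, limma adjusted p = 0.488). In JeKo-1 the values were 3.85, 2.08 and 2.73 against 2.47, 2.34 and 1.66 RPKM, again overlapping, at -0.33 ± 0.21 (adjusted p = 0.206).

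CCL22 is a chemokine that attracts T cells carrying the receptor CCR4. In Granta-519 it went from 92.1, 79.5 and 92.5 RPKM to 238, 180 and 184, and the log2 change was 1.18 ± 0.13 (SE, limma adjusted p = 0.000704). In JeKo-1 it went from 1.08, 0.976 and 1.36 RPKM to 5.43, 4.03 and 4.03, a change of 1.60 ± 0.15 (adjusted p = 9.07e-05). Groups did not overlap in either line, and the JeKo-1 mean of shCycD1 was 3.95 times that of shCtrl. Of all tested JeKo-1 genes 39.1% lay higher and 30.5% lower without overlap. In JeKo-1 the rise took CCL22 from about the testing minimum to above it, so that it could pass the filter through the silenced group alone. CCL17, the other ligand of CCR4, did not pass, with 0.08 in Granta-519 (limma adjusted p = 0.612) and 0.43 in JeKo-1 (adjusted p = 0.0806). CCR4 itself reached at most 0.316 RPKM in Granta-519 and was listed at 0 in every JeKo-1 library.

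CCL3 and CCL4 are neighbouring chemokine genes on chromosome 17, with 0 annotated genes between them in RefSeq, and their proteins attract T cells and myeloid cells. CCR1 is a receptor of CCL3. By mean level per genomic base, CCL3 lay above 99.5% of tested Granta-519 genes. It stood at 1369, 1479 and 1275 RPKM in shCtrl and 1379, 1617 and 1280 in shCycD1, and the groups overlapped (log2 change 0.05 ± 0.11 SE, limma adjusted p = 0.753). CCL4 fell from 318, 354 and 324 RPKM to 188, 215 and 181, with no overlap, by 0.77 ± 0.09 on the log2 scale (adjusted p = 0.000895), against 0.0011 with spike-in scaling. So in Granta-519 the neighbours parted. Per library, the log2 ratio of CCL4 to CCL3 RPKM was -2.11, -2.06 and -1.98 in shCtrl and -2.87, -2.91 and -2.82 in shCycD1, a difference of -0.82. The exact two-sided permutation test gave p = 0.10 (0.20 adjusted over 4 ratios computed), the smallest p that 3 against 3 libraries allow.

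**Figure D2:**
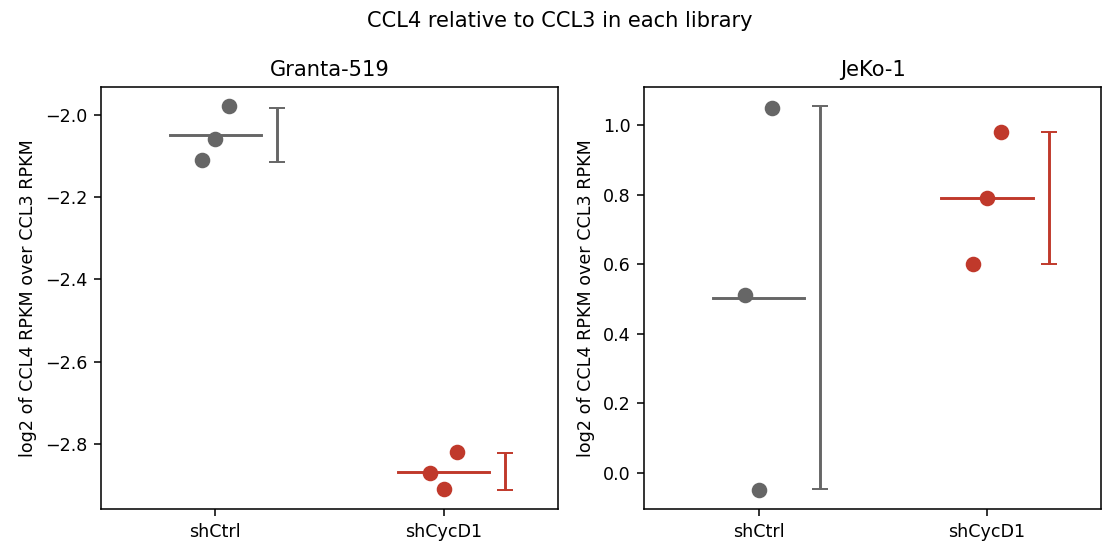
Log2 of CCL4 RPKM over CCL3 RPKM (vertical, different scales in the panels) in each shCtrl (grey) and shCycD1 (red) library of Granta-519 (left) and JeKo-1 (right), with group means (lines) and ± 1 SD (bars). The Granta-519 groups are separated, with means of -2.05 and -2.87, and the JeKo-1 groups overlap, with means of 0.51 and 0.79.

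In JeKo-1 both genes varied widely between the control libraries. CCL3 held 16.3, 3.94 and 5.81 RPKM in shCtrl and 21.1, 11.5 and 14.2 in shCycD1. CCL4 held 23.3, 3.82 and 12 RPKM against 31.9, 20.0 and 27.9. The groups overlapped for both genes, as shCtrl 1 lay within the range of the silenced libraries. For both genes each silenced library lay above the control of the same number, though the numbers were not taken to pair the samples. With the replicate number added to the limma fit both were called (adjusted p = 0.00897 for CCL3 and 0.0174 for CCL4). The log2 changes were 1.0 ± 0.47 (SE, limma adjusted p = 0.097) for CCL3 and 1.29 ± 0.56 (adjusted p = 0.0761) for CCL4. Without shCtrl 1 both were called, at 1.56 (adjusted p = 0.00248) and 1.86 (adjusted p = 0.00921), and without shCtrl 2 they were at 0.60 (adjusted p = 0.259) and 0.62 (adjusted p = 0.113). Both were also called with spike-in scaling (0.94, adjusted p = 0.0157, and 1.23, adjusted p = 0.00134), though the changes were not larger than in the main fit. Calls over all JeKo-1 genes fell from 7660 to 3051 with that scaling. CCL4 was also called with array weights (1.42, adjusted p = 0.0434). The JeKo-1 log2 ratio of CCL4 to CCL3 differed by 0.28 (exact permutation p = 0.50, 0.50 adjusted). CCR1 did not pass the test in either line, with log2 changes of 0.11 (limma adjusted p = 0.395) in Granta-519 and 0.15 (adjusted p = 0.474) in JeKo-1.

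Near-identical copies of both chemokines were listed as CCL3L1, CCL3L3, CCL4L1 (JeKo-1 only) and CCL4L2, and how the counting shared reads between copies is not given in the sources used here, so single copies are uncertain. In Granta-519 CCL4L2 fell like CCL4, from 126, 124 and 126 RPKM to 67.8, 84.5 and 67.2 (log2 change -0.78, limma adjusted p = 0.00135; -0.011 with spike-in scaling). CCL3L1 and CCL3L3 were each at -0.07 there (adjusted p = 0.768; 0.70 with spike-in scaling), and neither they nor CCL3 passed the test. In JeKo-1 a swap between copies is visible: CCL3L3 was at 2.69 and 0.822 RPKM in shCtrl 1 and 3 with CCL3L1 at 0.000334 and 0.000388, while in shCtrl 2 CCL3L1 was at 0.780 and CCL3L3 at 0.000226.

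CXCL10 is an interferon-induced chemokine of the receptor CXCR3. In Granta-519 it stood at 102, 105 and 81.7 RPKM in shCtrl and 108, 103 and 96.9 in shCycD1, with overlapping groups (log2 change 0.10 ± 0.11 SE, limma adjusted p = 0.486). Its co-ligand CXCL9 rose there from 9.52 ± 1.62 to 15.6 ± 2.31 RPKM (SD, n = 3; log2 change 0.69, limma adjusted p = 0.011), and CXCR3 was at 0.62 (adjusted p = 0.136). In JeKo-1 CXCL10 was at 0.598, 0.0483 and 0.505 RPKM against 0.947, 0.489 and 1.03, and the groups overlapped. Without the filter its JeKo-1 change was 0.62 (adjusted p = 0.159).

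IL4R and IL21R, the private chains of the IL4 and IL21 receptors, are also chromosomal neighbours, on chromosome 16 with 0 annotated genes between them, and rose in both lines. IL4R went from 8.27, 8.16 and 7.46 RPKM to 15.9, 17.2 and 14.1 in Granta-519 (log2 change 0.94 ± 0.10 SE, limma adjusted p = 0.000574). In JeKo-1 it went from 8.86, 6.12 and 8.27 to 13.6, 12.3 and 12.3 (0.70 ± 0.14, adjusted p = 0.00365). No silenced library overlapped a control library in either line. The JeKo-1 call of IL4R was lost with a GC correction (0.32, adjusted p = 0.0576) and with spike-in scaling (0.64, adjusted p = 0.125).

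IL21R went from 27.0, 23.4 and 26.4 RPKM to 38.0, 46.6 and 37.1 in Granta-519, a log2 change of 0.65 ± 0.11 (SE, limma adjusted p = 0.00407). In JeKo-1 it went from 1.54, 0.329 and 1.38 RPKM to 5.35, 2.07 and 5.39, a change of 1.60 ± 0.43 (adjusted p = 0.014). The groups were apart in both lines, and replicate 2 was the lowest library of each JeKo-1 group. Like CCL22, IL21R could pass the JeKo-1 filter through the silenced group alone. The antisense gene IL21R-AS1 overlaps IL21R and moved with it, at 0.70 in Granta-519 (limma adjusted p = 0.00139) and 1.54 in JeKo-1 (adjusted p = 0.0297). The JeKo-1 call of IL21R-AS1 was lost without the filter, with the GC correction and without shCtrl 2 or shCycD1 1 or 3 (1.01 to 1.54). The library kit keeps the strand, but whether counting used it is not given in the sources used here, so reads of the pair cannot be told apart. The log2 ratio of IL21R to IL4R differed by -0.32 in Granta-519 (exact permutation p = 0.10, 0.20 adjusted over the same 4 ratios) and by 1.41 in JeKo-1 (exact permutation p = 0.20, 0.27 adjusted).

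IL10RA is the ligand-binding chain of the IL10 receptor. In JeKo-1 it rose from 11.3, 11.1 and 9.43 RPKM to 20.7, 19.2 and 20.2, with no overlap (log2 change 0.89 ± 0.09 SE, limma adjusted p = 0.000163). In Granta-519 it held 19.0, 19.5 and 15.4 RPKM in shCtrl and 27.4, 37.9 and 19.2 in shCycD1. There shCycD1 3 fell within the control range, and the change of 0.59 ± 0.23 was not called (adjusted p = 0.0854). Without shCycD1 3 it was called (0.83, adjusted p = 0.0161), and without shCycD1 2 it was at 0.35 (adjusted p = 0.183). Its partner IL10RB rose in Granta-519 by 0.32 (adjusted p = 0.00998) and was at 0.08 in JeKo-1 (adjusted p = 0.463).

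IL2RG moved in opposite directions. In Granta-519 it rose from 324, 365 and 327 RPKM to 588, 472 and 484 (log2 change 0.60 ± 0.10 SE, limma adjusted p = 0.00456). In JeKo-1 it fell from 51.9, 42.5 and 45.5 RPKM to 35.2, 35.9 and 38.6 (-0.34 ± 0.09, adjusted p = 0.013). Groups did not overlap in either line, where 30.5% of JeKo-1 genes lay lower without overlap and 39.1% higher. The JeKo-1 call was lost with spike-in scaling (-0.40, adjusted p = 0.416). Of all genes tested in both lines 2.99% were called in opposite directions.

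**Figure D3:**
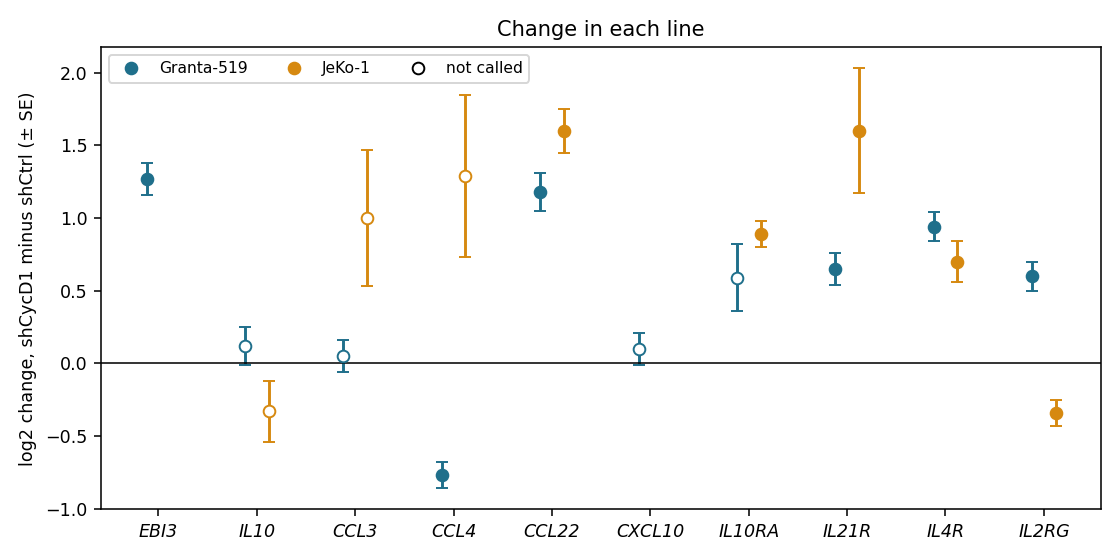
Log2 change on the log2(RPKM + 0.5) scale, shCycD1 minus shCtrl (vertical), with SE bars for the 10 genes in Granta-519 (blue) and JeKo-1 (orange); open points did not pass limma at an adjusted p under 0.05, and EBI3 and CXCL10 were not tested in JeKo-1. CCL22, IL21R and IL4R lie above 0 with filled points in both lines, and IL2RG lies on opposite sides.

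The difference between the lines was tested for the 8 members tested in both (limma, Granta-519 change minus JeKo-1 change). It was called for 2 of them, where 41.9% of 10653 genes were called, 19.3% with the Granta-519 change above and 22.6% below that of JeKo-1. CCL4 differed by -2.06 ± 0.63 (SE, limma adjusted p = 0.0209) and IL2RG by 0.94 ± 0.14 (adjusted p = 0.000333). The other members were not called, with IL21R at -0.95 ± 0.50 (adjusted p = 0.145), CCL3 at -0.96 ± 0.54 (adjusted p = 0.174), CCL22 at -0.43 ± 0.20 (adjusted p = 0.107), IL10 at 0.45 ± 0.26 (adjusted p = 0.192), IL10RA at -0.30 ± 0.27 (adjusted p = 0.394) and IL4R at 0.24 ± 0.17 (adjusted p = 0.288). Several of these passed when a library was left out: CCL3 without JeKo-1 shCtrl 1 (-1.51, adjusted p = 0.00213), IL21R without JeKo-1 shCycD1 2 (-1.35, adjusted p = 0.0231), CCL22 without Granta-519 shCycD1 1 (-0.56, adjusted p = 0.0405) and IL4R without JeKo-1 shCtrl 2 (0.39, adjusted p = 0.0397). IL4R also passed with the GC correction (0.57), spike-in scaling (1.04) and the JeKo-1 table read as log2 (0.43). CCL3 (-1.11) and IL21R (-1.15) passed with array weights, CCL22 with a pseudocount of 0.1 (-0.71) and IL10 with spike-in scaling (1.16). With the replicate number in the fit CCL3 (-0.96, adjusted p = 0.0202) and IL21R (-0.95, adjusted p = 0.0025) passed. A missed threshold does not show that the lines responded alike.

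The common gamma chain works with a set of private chains and with the kinases JAK1 and JAK3. IL2RB rose in Granta-519 from 4.79 ± 0.662 to 10.0 ± 1.51 RPKM (SD, n = 3; log2 change 0.99, limma adjusted p = 0.00197) and reached at most 0.309 RPKM in JeKo-1. IL15RA, the private chain for IL15, rose in both lines, in Granta-519 by 0.33 (adjusted p = 0.0208) and in JeKo-1 by 0.82 (adjusted p = 0.0117). The Granta-519 call of IL15RA was lost without shCtrl 1, shCycD1 1 or shCycD1 2 (0.29 to 0.34) and with the replicate number in the fit (adjusted p = 0.0527). Its JeKo-1 call was lost with the GC correction (0.46, adjusted p = 0.0827). IL7R, the receptor of the lymphoid growth factor IL7, fell in JeKo-1 from 2.13 ± 0.351 to 0.477 ± 0.158 RPKM (log2 change -1.44, adjusted p = 0.000205), having passed the filter only through the control group, and reached at most 0.56 RPKM in Granta-519. IL13RA1, which joins IL4R in the type II IL4 receptor, rose by 1.09 in Granta-519 (adjusted p = 0.000242) and was at 0.17 in JeKo-1 (adjusted p = 0.51; called without shCycD1 1 at 0.42, adjusted p = 0.0305). JAK3, the kinase bound to the common gamma chain, rose in Granta-519 by 0.94 (adjusted p = 0.00125) and in JeKo-1 by 0.36 (adjusted p = 0.0316). The JeKo-1 call of JAK3 was lost without the filter, with quantile normalization or spike-in scaling, and without shCtrl 2 or 3 or shCycD1 1 or 2, and its value was -0.031 with the GC correction. JAK1 rose in Granta-519 by 0.59 (adjusted p = 0.0021) and in JeKo-1 by 0.28 (adjusted p = 0.0115, lost with spike-in scaling). Of the cytokines that use this chain, IL2 was listed at 0 in every library of both tables. IL4 reached at most 0.14 RPKM and IL21 at most 0.0626 RPKM in Granta-519, and both were listed at 0 in JeKo-1. IL7 was present in Granta-519, at 5.92 ± 0.427 RPKM in shCtrl and 6.57 ± 0.122 in shCycD1. Its log2 change of 0.14 was not called (limma adjusted p = 0.222), and JeKo-1 libraries held at most 0.227 RPKM. IL15 reached at most 1.03 RPKM in Granta-519, with means of 0.323 in shCtrl and 0.881 in shCycD1. The highest JeKo-1 value of IL15 was 0.563 RPKM. IL9 stayed at or under 0.368 RPKM in Granta-519, with 0 throughout JeKo-1. Neither IL15 nor IL9 was tested.

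Over the whole list of other cytokine receptor chains, which includes IL2RB, IL15RA, IL7R and IL13RA1, 11 of 23 tested rose and 0 fell in Granta-519 (median log2 change 0.25, against 0.03 over all tested genes), where 22.4% of all tested genes were called higher and 18.2% lower. At an adjusted p under 0.05 the other 12 were not called. Among the risers, IL18R1 (0.555 ± 0.0531 to 1.1 ± 0.0831 RPKM) and LEPR (0.651 ± 0.0674 to 1.15 ± 0.028) passed the filter only through the silenced group. The JeKo-1 counts were 6 higher and 4 lower of 21 (median 0.08, against 0.09), where 36.7% of all tested genes were called higher and 27.8% lower. There the riser IL11RA (0.554 ± 0.049 to 1.2 ± 0.0841 RPKM) passed the filter only through the silenced group. IL1R2, a decoy receptor of IL1, rose by 1.17 in Granta-519 (limma adjusted p = 0.000236). IFNLR1, the interferon lambda receptor chain, rose in JeKo-1 by 1.49 (adjusted p = 1.88e-05), and CSF2RB, the shared chain of the IL3, IL5 and GM-CSF receptors, rose by 0.97 (adjusted p = 0.000202). In Granta-519 IFNLR1 and CSF2RB were not called.

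Among 14 other chemokines tested in Granta-519 8 rose and 1 fell (median 0.37, against 22.4% higher and 18.2% lower of all tested genes), the fall being CCL4L2. CCL19, which guides lymphocytes carrying CCR7, went from 0.881 ± 0.41 to 11.6 ± 1.29 RPKM (SD, n = 3; log2 change 3.17, limma adjusted p = 0.000219). CX3CL1, a chemokine that is also an adhesion molecule, rose by 1.43 (adjusted p = 0.000217). CCL20, the ligand of CCR6, rose by 2.04 (adjusted p = 0.000167), from 0.0204 to 1.65 RPKM, so that CCL20 passed the filter only through the silenced group. XCL1, also among the risers, passed only that way too (0.542 ± 0.0834 to 1.24 ± 0.3 RPKM). In JeKo-1 2 of 6 rose and 0 fell (median 0.76), near the 36.7% of all tested genes called higher. These 6 include CCL3L3, CCL4L1 and CCL4L2, copies of members, and the median is the value of CCL4L1 and CCL4L2 (0.76 each, not called). The 14 of Granta-519 likewise include CCL3L1, CCL3L3 and CCL4L2. CXCL16, the ligand of CXCR6, rose in JeKo-1 by 1.33 (limma adjusted p = 0.00175) and CCL5 by 0.49 (adjusted p = 0.00679). CCL5, a chemokine shared by T cells and activated B cells, also rose by 0.36 in Granta-519 (adjusted p = 0.0292), a call lost without shCtrl 1 or 3 or shCycD1 1 or 3 (0.28 to 0.38), and with the GC correction in each line (0.30 and 0.24). In JeKo-1 the call of CCL5 was also lost with spike-in scaling (0.44).

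Of the other cytokine ligands 2 of 14 rose and 1 fell in Granta-519 (median 0.15, with 22.4% of all tested genes higher) against 4 higher and 1 lower of 6 in JeKo-1 (median 0.99, against 0.09 over all tested genes, of which 36.7% were higher). IL23A, a subunit of interleukin 23, rose in both, by 0.48 (limma adjusted p = 0.0174) and by 1.12 (adjusted p = 0.000103). Its Granta-519 call was lost without shCtrl 1 or shCycD1 1 or 2 (0.41 to 0.44). IL1A rose by 0.38 in Granta-519 (adjusted p = 0.0298), having passed the filter only through the silenced group, and its call was lost with quantile normalization (0.24) and without shCtrl 1 or 2 (0.40 and 0.32). In JeKo-1 CSF1, the macrophage growth factor, rose from 2.28 ± 1.53 to 14.0 ± 7.24 RPKM (log2 change 2.37, adjusted p = 0.00467) and CLCF1, a B-cell stimulating cytokine, by 1.21 (adjusted p = 0.000149). In Granta-519 CSF1 was at 0.39 (adjusted p = 0.052) and CLCF1 at -0.27 (adjusted p = 0.263). There CSF1 was called higher with a mean of at least 5 RPKM required, quantile normalization or spike-in scaling (0.37 to 1.12). CLCF1 was called lower with array weights (-0.46) and without shCycD1 2 (-0.45).

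**Figure D4:**
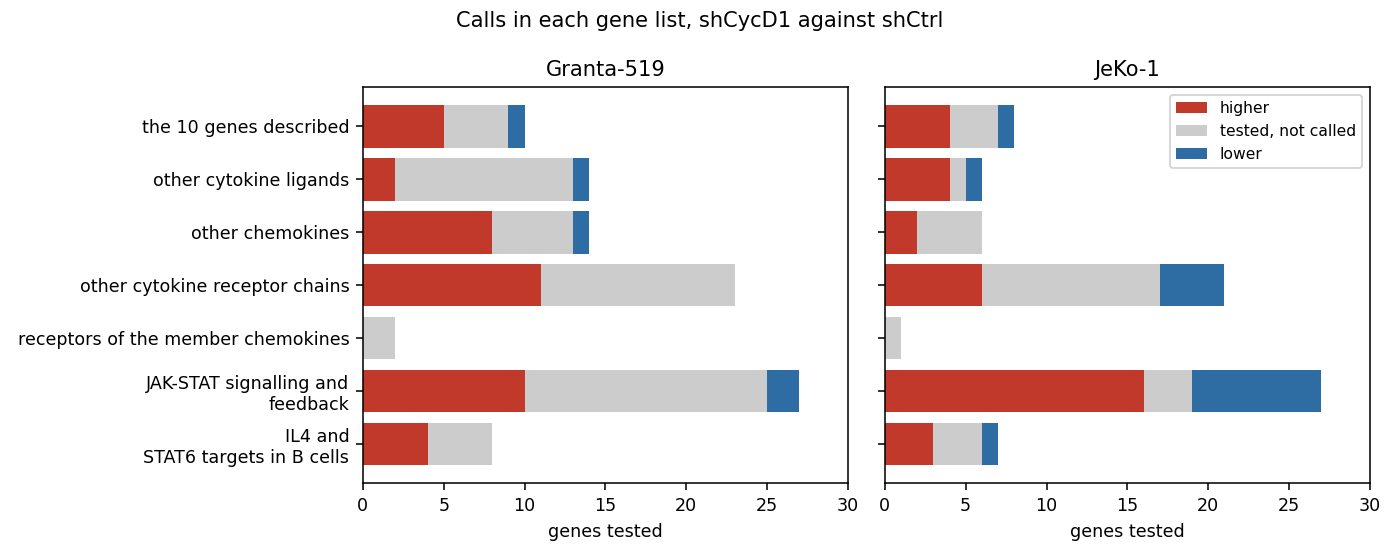
Number of tested genes (horizontal) called higher (red), called lower (blue) or not called (grey) by limma in the 10 genes described and in 6 lists of related genes, in Granta-519 (left) and JeKo-1 (right). Receptor chains show 11 calls, all higher, in Granta-519 and 6 higher with 4 lower in JeKo-1. Some counted genes passed the filter through 1 group only, with IL18R1 and LEPR among the 11.

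Downstream of these receptors, 10 of 27 JAK-STAT and feedback genes rose and 2 fell in Granta-519 (median 0.04, against 0.03), and 16 were higher and 8 lower in JeKo-1 (median 0.36, against 0.09). All genes tested were called either way at 40.6% in Granta-519, near the list's share, and at 64.6% in JeKo-1. STAT5A, which carries signals of the gamma chain receptors, rose in Granta-519 by 0.79 (limma adjusted p = 0.00246) and in JeKo-1 by 1.10 (adjusted p = 0.00186). The related STAT5B was not called in Granta-519 (-0.08, adjusted p = 0.62) and rose in JeKo-1 by 0.50 (adjusted p = 0.000931). STAT3, used by the IL10 and IL21 receptors, was higher by 0.46 in the former (adjusted p = 0.0102) and 0.76 in the latter (adjusted p = 0.000147, lost with spike-in scaling at 0.70). STAT2, a part of the interferon response, rose in Granta-519 by 0.57 (adjusted p = 0.0324) and in JeKo-1 by 2.11 (adjusted p = 6.63e-06). The Granta-519 call of STAT2 was lost without the filter, with the replicate number in the fit (adjusted p = 0.052) and without any 1 shCtrl library (0.55 to 0.59). STAT6, the factor activated by IL4R, did not pass in either line (0.02, adjusted p = 0.925, in Granta-519 and 0.16, adjusted p = 0.166, in JeKo-1).

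Feedback genes of the pathway moved both ways. SOCS1, an inhibitor of JAK kinases, rose in JeKo-1 by 2.37 (limma adjusted p = 0.000185). Its Granta-519 change was 0.50 (adjusted p = 0.0351). That call was lost without the filter, with the replicate number in the fit (adjusted p = 0.0504) and without any 1 shCycD1 library (0.45 to 0.55). SOCS2, another family member, rose by 2.12 in Granta-519 (adjusted p = 0.000105) and fell by 0.83 in JeKo-1 (adjusted p = 0.00121). PIM1, a kinase gene induced by STATs, fell in Granta-519 by 0.82 (adjusted p = 0.008, -0.05 with spike-in scaling) and in JeKo-1 by 1.05 (adjusted p = 0.0414). The JeKo-1 call of PIM1 was lost without the filter, with quantile normalization and without shCtrl 1 or 3 or shCycD1 2 or 3 (-1.11 to -0.72). PIM2, a related kinase gene, rose in Granta-519 by 0.33 (adjusted p = 0.0181) and in JeKo-1 by 1.43 (adjusted p = 0.000153), the Granta-519 call being lost without shCtrl 1 or 3 or shCycD1 1 or 2 (0.28 to 0.35). PIAS3, an inhibitor of STAT3, rose by 0.44 in Granta-519 (adjusted p = 0.00654) and fell by 0.28 in JeKo-1 (adjusted p = 0.0212), the latter lost with spike-in scaling (-0.34) and without shCtrl 3 or shCycD1 2 (-0.27 and -0.23). PTPN6, a phosphatase that damps these receptors, fell by 0.32 in Granta-519 (adjusted p = 0.0217, 0.45 with spike-in scaling, and lost without shCtrl 1 or 3 or shCycD1 1 or 2 at -0.33 to -0.26). It rose by 0.80 in JeKo-1 (adjusted p = 0.0122), lost with the GC correction (0.39) and with spike-in scaling (0.74). The transcriptional repressor BCL6 rose by 1.68 in JeKo-1 (adjusted p = 3.65e-05).

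Of 10 genes listed as targets of IL4 and STAT6, 4 of 8 tested rose and 0 fell in Granta-519 (median 0.23). In JeKo-1 3 were higher and 1 lower of 7 (median 0.68), the lower being XBP1 (-0.39, limma adjusted p = 0.0106). Over all tested genes 22.4% were higher in Granta-519 and 36.7% in JeKo-1, the latter near the list's share. The other 4 in Granta-519 were not called. FCER2, the low-affinity IgE receptor CD23, went from 131 ± 12.7 to 215 ± 7.43 RPKM in Granta-519 (SD, n = 3; log2 change 0.72, limma adjusted p = 0.00104) and from 0.839 ± 0.0359 to 6.05 ± 1.08 in JeKo-1 (log2 change 2.28, adjusted p = 1.33e-05), where it passed the filter only through the silenced group. Of the list genes named, BCL6, CISH, IL15RA and SOCS1 in JeKo-1 and CCL19 in Granta-519 reached 1 RPKM in 2 of 3 control libraries and in all 3 silenced ones, so they too could pass through the silenced group alone. PTGER4, a prostaglandin receptor, rose by 0.64 in Granta-519 (adjusted p = 0.00914), and CISH, a STAT5 feedback gene, by 0.98 in JeKo-1 (adjusted p = 0.00116).

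Markers of other cells that make these chemokines were mostly under 1 RPKM, with CSF1R (38.2 to 50.7 RPKM) and CD68 (11.2 to 15.2) as the highest in Granta-519, and the T and NK sums were lower after silencing. The 13 T and NK markers summed to 16.4 to 19.2 RPKM in Granta-519 shCtrl and 12.6 to 15.1 in shCycD1, and to 6.92 to 7.30 and 5.00 to 5.46 in JeKo-1. The 12 myeloid markers summed to 66.4 to 74.4 and 66.4 to 72.8 RPKM in Granta-519 and to 4.83 to 5.49 and 4.11 to 5.19 in JeKo-1, with 2 and 5 of them listed at 0 throughout. The T-cell markers CD3E and CD2 reached at most 0.302 RPKM in either line. In Granta-519 PRF1 fell from 9.80 ± 0.679 to 6.44 ± 0.836 RPKM (SD, n = 3; log2 change -0.57, limma adjusted p = 0.00724). FCER1G rose there by 0.69 (adjusted p = 0.0111) and ITGAM by 0.39 (adjusted p = 0.0329). In JeKo-1 CD8B fell from 2.19 ± 0.198 to 0.894 ± 0.131 RPKM (log2 change -0.95, adjusted p = 0.000306). It could pass the filter through the control group alone. CD3G rose in JeKo-1 by 0.28 (adjusted p = 0.046). The part of these markers in the changes above was not tested, and in bulk RNA fewer cells with a transcript and less of it per cell cannot be told apart.

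Patterns across the 12 libraries were compared after centring each line (Pearson's r of log2 values, a description in which the libraries share their line and treatment). IL21R was most like IL21R-AS1 (0.992) and IL15RA (0.982), CCL4 most like its copy CCL4L2 (0.961), and CCL3 most like MOB3A (0.976) and the early response gene EGR2 (0.959). CCL22 was most like ORAI3 and FBXO10 (both 0.983), IL4R most like MKNK2 (0.984), IL10RA most like MPI (0.961), and IL2RG most like TRIP4 (0.956) and the chaperone HSPA5 (0.952). IL10 had the lowest best match, CCRN4L at 0.857. Among the members themselves, CCL22 and IL4R were at 0.91, CCL3 and CCL4 at 0.87, and CCL4 and IL2RG at -0.43.

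Some libraries held the lowest value of many members. In JeKo-1 shCtrl, replicate 2 was the lowest library for 8 of the 10 members (IL10, CCL3, CCL4, CCL22, CXCL10, IL21R, IL4R and IL2RG), against 32.4% of all tested genes. In JeKo-1 shCycD1, replicate 2 was the lowest for 6 of the 10, against 32.1%. In Granta-519 shCycD1, replicate 3 was the lowest for 7 of the 10 (IL10, CCL3, CCL4, CXCL10, IL10RA, IL21R and IL4R), against 26.8%. Without shCtrl 2 the JeKo-1 changes of IL21R (1.19) and IL4R (0.54) were still called (limma adjusted p = 0.0275 and 0.00408).

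**Figure D5:**
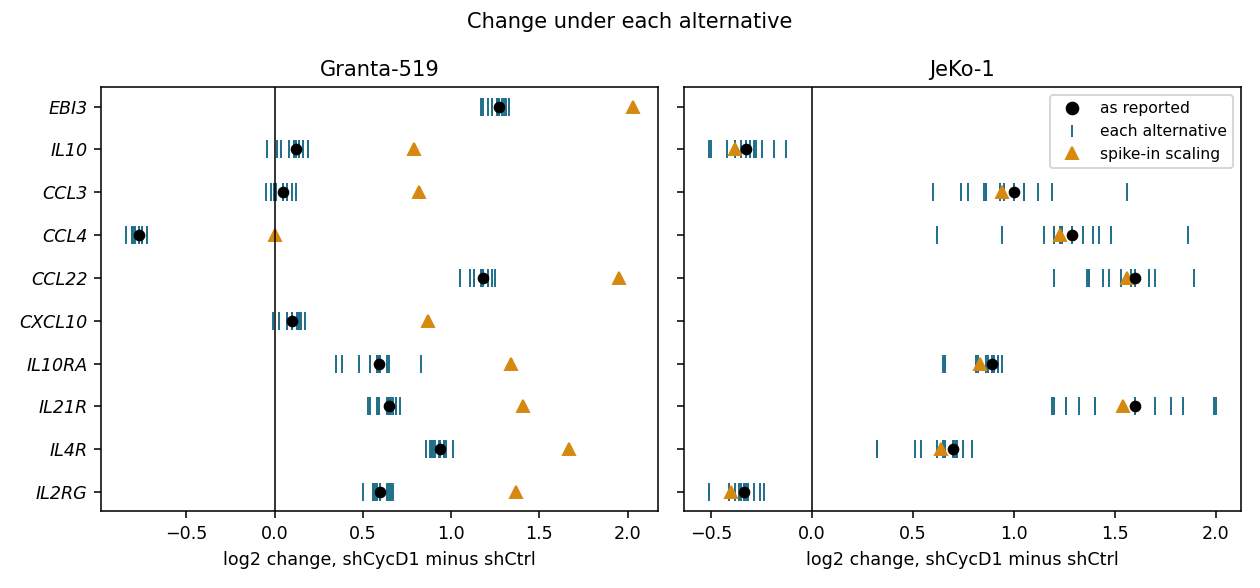
Log2 change, shCycD1 minus shCtrl (horizontal), of the 10 genes as reported (black), under each alternative processing or left-out library (ticks) and with spike-in scaling (orange triangles), in Granta-519 (left) and JeKo-1 (right). Spike-in scaling shifts every Granta-519 value upward, with CCL4 at 0.0011, while JeKo-1 values stay close.

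Each Granta-519 change above compares a gene with the rest of its library. With ERCC spike-ins, synthetic RNAs added to a sample, as the scale, the Granta-519 median over all genes went from 0.03 to 0.74 and the calls from 2840 higher and 2303 lower to 7928 higher and 148 lower. With it 9 of the 10 members were called higher in Granta-519, as were 7928 of all 12888 genes tested. CCL4 stood at 0.0011 (limma adjusted p = 0.997), below that median. For the difference between lines the split went from 2053 above and 2410 below to 3217 and 147 with spike-in scaling, and to 2180 and 1690 with the GC correction. In JeKo-1 the spike-in median was 0.03.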

How the data were processed

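The authors deposited 1 table per line, covering 12 RNA-seq libraries. Tools in the submitters' processing notes are FastQC, TopHat2 2.1.1 and limma 3.9, and builds are GRCh37 and hg19. No counter, annotation or log base is named in the sources used here. The deposited values are titled RPKM and were taken to be ln(RPKM + 1), a natural log. In Granta-519 78.6 to 80.6% of low values were whole multiples of a step under that base (tolerance 0.1), against 50.9 to 54.3% for log2. In JeKo-1 the base is inferred from spike-in spread (ratio to Granta-519 of 0.97, against 0.70 for log2) and is not settled.

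Values were taken out of the log, the highest row per symbol was kept, and shCycD1 was compared with shCtrl per line by limma 3.58.1 under R 4.3.3, its variance prior following the mean level, on log2(RPKM + 0.5), which understates changes of low genes. Genes at 1 RPKM or more in at least 3 of 6 libraries were tested, and adjusted p under 0.05 was called. A joint fit gave the difference between lines. On simulated data with 200 changed genes, a log2 change of 1 was recovered in 81% (Granta-519, 12668 genes) and 87% (JeKo-1, 11866 genes), and a change of 0.5 in 28% and 34%. The real fits called 5143 and 7660 genes, so the simulated threshold was stricter and these shares do not describe recovery in the real data. The changed genes were drawn only above a minimum control level, which CCL22 and IL21R in JeKo-1 lie below. Depth is unknown, so no counting intervals are given, and p-values measure the spread between these libraries.

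The members and lists were chosen with earlier results of these data known. Named beyond the members are genes of each list called in both lines and the 3 largest called changes per line; some of these genes are not reported here. Alternatives covered pseudocount, filter, scaling, library weights, row choice, log base, replicate block and left-out libraries; the GC correction (transcripts for 93.9% of symbols), and some alternatives for the difference, were added after seeing the data. Figures were drawn with matplotlib 3.10.9 and ratios tested with scipy 1.17.1.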

Additional observations from a re-analysis of the deposited data

Results flagged for a closer look

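The change of CCL4 differed between the lines by -2.06 (limma adjusted p = 0.0209), where it was lower in all 3 silenced Granta-519 libraries and stood higher on average in JeKo-1, where shCtrl 1 overlapped the silenced libraries. The difference was called under all 24 alternatives run, at -2.63 to -1.23. The change of IL2RG differed by 0.94 (adjusted p = 0.000333), and it was called under all 24 alternatives as well, at 0.84 to 1.78.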

How the results depend on the processing

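Over the alternatives, 161 member values kept their side of the threshold in Granta-519, 7 newly passed and 1 reversed. In JeKo-1 129 kept it, 9 newly passed and 3 were lost, and for the difference 173 kept it and 16 newly passed. A change of sign between uncalled values counted as kept. Examples are CCL3 in Granta-519 with quantile normalization (-0.02, against 0.049) and the IL10RA difference with spike-in scaling (0.51, against -0.3). With spike-in scaling 8076 of 12888 tested genes were called in Granta-519 and 3051 of 11810 in JeKo-1. With this scaling 9 members were higher and 0 lower in Granta-519, where 7928 of all tested genes were higher. In JeKo-1 0 members were lower, and 3 members had a larger change in Granta-519 than in JeKo-1. CCL4 (0.0011), CCL3L1 and CCL3L3 (0.70 each), IL12A (0.08) and PTPN6 (0.45) changed sign in Granta-519. A mean RPKM of 5 or more left 5 members tested in JeKo-1, 2 of them higher, and 2903 genes called for the difference, with fewer genes tested. For the members whose change was called smaller in Granta-519 (1 as reported, CCL4), pseudocount 0.1 gave 2 and array weights 3. For those called larger (1 as reported, IL2RG), the JeKo-1 table read as log2 gave 2, and so did the GC correction, with which JAK3 was at -0.031 in JeKo-1. The cause was not tested.

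Same-numbered libraries were checked for pairing: their deviations correlated at 0.006, -0.124 and 0.033 in Granta-519 and at 0.187, 0.095 and 0.103 in JeKo-1. The rule asked a minimum of every pair and not all reached it, so the numbers were not taken to pair the samples. Differently numbered JeKo-1 libraries correlated at -0.102 to 0.001, so each JeKo-1 library correlated best with its own number. Whether the JeKo-1 libraries are paired is therefore not settled. The main fit and the permutation tests were unpaired, those of CCL3 and CCL4 in JeKo-1 included. With the replicate block 4188 genes were called in Granta-519, 8707 in JeKo-1 and 4795 for the difference, where 3 members (CCL3, CCL4 and IL21R) had a smaller change in Granta-519. With it CCL3 and CCL4 were called higher in JeKo-1 (adjusted p = 0.00897 and 0.0174) and IL10RA in Granta-519 (adjusted p = 0.0343), and the Granta-519 calls of CCL5 (adjusted p = 0.0799), IL15RA (0.0527), SOCS1 (0.0504) and STAT2 (0.052) were lost. With the replicate block and the GC correction JAK3 was at -0.031 in JeKo-1, 2 members had a larger and 3 a smaller change in Granta-519.

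With single libraries left out, 3291 (without shCycD1 1) to 5151 genes were called in Granta-519, and 1 to 2 members had a smaller and 1 to 2 a larger change in Granta-519 than in JeKo-1. The unknown depth limits members near 1 RPKM, which are EBI3, CXCL10, CCL22 and IL21R in JeKo-1.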
